A study of Mus musculus with 148 samples.

Results

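The 34 genes described here are 26 genes of the immediate early response, many of which cells switch on within minutes of a stimulus, and 8 heat shock genes, which include inducible and constitutive chaperones. They were taken by name from the gene rows of the plate count files, in which all 34 were found among 52542 gene rows. For each gene, UMIs (unique molecular identifiers, 1 for each captured mRNA molecule) were summed over the cells of 1 annotated subpopulation in 1 tissue of 1 mouse, and each sum was scaled to a total of 1000000 UMIs to give CPM. The module score of a sum is the mean of log2(CPM + 1) over the 34 genes.

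The immediate early genes encode short-lived regulators: AP-1 and EGR transcription factors that start a response, and phosphatases, RNA-decay proteins and NF-kB inhibitors that end it. The heat shock genes encode chaperones of the HSP70, HSP90 and DNAJ families, which bind unfolded proteins and some of which are induced by heat shock factor. In immune cells the first set is known to follow activation by pathogens, cytokines and adhesion, and both sets are known to be inducible by enzymatic tissue dissociation.

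The study used a breast cancer model, in which cells of the EO771 line carrying tdTomato were injected into the mammary gland of female PA-GFP mice, a C57BL/6 strain whose cells become green after two-photon light, at 8 weeks of age. Primary tumors were resected after 3 weeks, and spontaneous lung metastases followed in some mice. Cells were sorted singly into multi-well plates and sequenced. The series held 63 tissue samples from 27 mice on 148 plates from 12 sequencing batches.

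The 3 control lungs came from PA-GFP mice without a tumor, and the 3 Pre-MET lungs from tumor-bearing mice before resection. The 6 relapse-free lungs came from mice without metastases after resection, and all 12 of these samples were whole lungs. Metastasis-bearing mice gave 14 sections of distal normal tissue and 13 sections of metastases, and photoactivation of metastatic tissue gave 13 metastasis cores and 7 invasive margins. The margin of mouse 17 is labelled as such, but its plates carry NON-MET as the photoactivated target, and values with and without it are given below. The 4 primary tumors were the only samples digested with the tumor program of the dissociator, the lungs being digested with the lung program, in both cases for 15 min at 37 °C. Cells were gated as CD31-CD45+ in sections, primary tumors and most whole lungs, and as CD31-GFP+ after photoactivation, without a CD45 gate except in 1 core. The relapse-free lungs of mice 6 and 7 also gave plates gated as CD31-GFP+ and as CD31-GFP-CD45+. The model rests on 1 transplanted tumor line, and relapse-free and metastasis-bearing mice were told apart by their outcome.

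After cells annotated as erythrocytes, outliers or tumor were left out, 23425 immune cells remained, with 55 to 1974 per sample and median UMIs per cell between 812.25 and 1200.75 in the lung tissues and 3524.5 in primary tumors. They gave 510 sums of at least 10 cells over 26 subpopulations (5720 to 731354 UMIs) and 316 sums over whole lineages. The names of all wells were distinct. Whether well barcodes recur between plates was not tested. In T cells, NK cells, monocytes, macrophages and neutrophils the defining markers of the named lineage were detected. Neutrophil markers (S100a8, S100a9 and Retnlg) were also detected in the other lineages. Their summed level is given beside many of the results below, but not for macrophages of sections or comparisons of cores with sections or margins. In summed cells, fewer expressing cells and less RNA per cell cannot be told apart.

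Reference sequence upstream of the start was available from RefSeq for 28 of the 34 genes. Printed here are the 250 bases before the start of 4 genes on which results below turn, in build GRCm38.p6, each 5′ to 3′ on the minus strand: Hspa1a (chr17:34972157-34972406) and Hspa1b (chr17:34959239-34959488), the heat-inducible HSP70 genes; Jun (chr4:95052223-95052472), a subunit of AP-1; and Dusp1 (chr17:26508473-26508722), a MAP kinase phosphatase. Capitals mark a match to the heat shock element letters GAANNTTC in the first 3 and to the cAMP response element TGACGTCA in Dusp1.
Hspa1a: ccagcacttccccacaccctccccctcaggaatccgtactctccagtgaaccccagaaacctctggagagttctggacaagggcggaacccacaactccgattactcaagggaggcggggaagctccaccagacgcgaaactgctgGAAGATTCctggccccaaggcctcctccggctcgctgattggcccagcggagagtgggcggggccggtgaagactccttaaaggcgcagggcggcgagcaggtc
Hspa1b: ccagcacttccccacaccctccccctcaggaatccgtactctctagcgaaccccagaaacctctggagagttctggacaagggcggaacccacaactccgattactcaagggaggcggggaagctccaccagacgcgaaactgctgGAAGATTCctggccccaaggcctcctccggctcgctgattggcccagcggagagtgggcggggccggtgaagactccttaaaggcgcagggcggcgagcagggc
Jun: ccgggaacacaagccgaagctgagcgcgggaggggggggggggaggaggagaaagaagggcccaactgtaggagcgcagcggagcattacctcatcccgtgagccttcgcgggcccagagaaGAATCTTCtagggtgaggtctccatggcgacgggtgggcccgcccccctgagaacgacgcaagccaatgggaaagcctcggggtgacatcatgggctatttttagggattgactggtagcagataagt
Dusp1: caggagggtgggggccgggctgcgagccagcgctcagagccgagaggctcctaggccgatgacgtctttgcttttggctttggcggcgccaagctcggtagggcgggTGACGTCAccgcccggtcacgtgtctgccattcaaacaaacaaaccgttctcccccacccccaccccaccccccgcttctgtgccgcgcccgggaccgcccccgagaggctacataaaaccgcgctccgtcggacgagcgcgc
The 250 bases of Hspa1a and Hspa1b were identical at 247 positions (98.8%), with GAAGATTC ending 96 bases before the start in both. Reads that map to more than 1 position were removed by the authors, so the counts of these near-identical genes are uncertain, and their sum is given below beside the single values. Searched on both strands, GAANNTTC was present in 5 of the 28 windows (Jun, Fosl2, Hspa1a, Hspa1b and Dnaja1), against 6.69% of all 32851 windows of this length. TGACGTCA was present in 3 of 28 (Dusp1, Btg2 and Ppp1r15a), against 1.55%. The AP-1 letters TGANTCA were found in 1 of 28 (Zfp36l1, against 6.75%) and a form of the serum response element (CArG box), with TAT at a fixed place between CC and GG and any base elsewhere, in 4 of 28 (Atf3, Egr2, Dusp5 and Ppp1r15a, against 1.38%). A match is a run of letters and says nothing about binding in these cells.

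Across subpopulations the summed immediate early genes were highest in neutrophils other than Neut Camp, and the summed heat shock genes lowest in neutrophils. The heat shock sum rests largely on Hsp90ab1, at 1102 CPM in all immune cells pooled, against 271 for Hspa8, the next of the 8. Summed over the 26 immediate early genes, Neut Ptgs2 cells held 49881 ± 9581 CPM (SD, n = 29 sums), PMN-MDSC 48864 ± 13198 (n = 5) and Neut Ifit3 39292 ± 9272 (n = 16). Monocytes were lower, with 18612 ± 6461 CPM in Mon Thbs1 (n = 25) and 13588 ± 4078 in Mon Fn1 (n = 54), and CD8 Gzma T cells lowest, with 5162 ± 1116 (n = 8). The lower 3 of these subpopulations and the upper 3 lay apart by more than their SDs. Levels between subpopulations are descriptions without a test, since the authors' clustering could use these genes.

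The 8 heat shock genes together were at 674 ± 386 CPM in Neut Ptgs2 and at 331 CPM in Neut Camp cells, against 1508 ± 579 in Mon Fn1 and 3483 ± 2505 in Mac Isg20. PMN-MDSC had 1462 ± 1859 CPM, an SD larger than the mean. The other subpopulations of monocytes, macrophages, dendritic cells, T cells, NK cells and B cells had means from 2046 to 3178 CPM, and these neighbours did not differ beyond their SDs. The module score weighs every gene alike and was highest in Neut Ptgs2 (7.85 ± 0.86), followed by PMN-MDSC (7.77 ± 0.27), Mon Thbs1 (7.70 ± 1.01) and Mac Isg20 (7.61 ± 0.80), which overlapped each other. It was lowest in CD8 Dapl1 T cells (5.11 ± 1.17, n = 9) and Neut Camp (4.59 ± 1.41, n = 4).

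**Figure D1:**
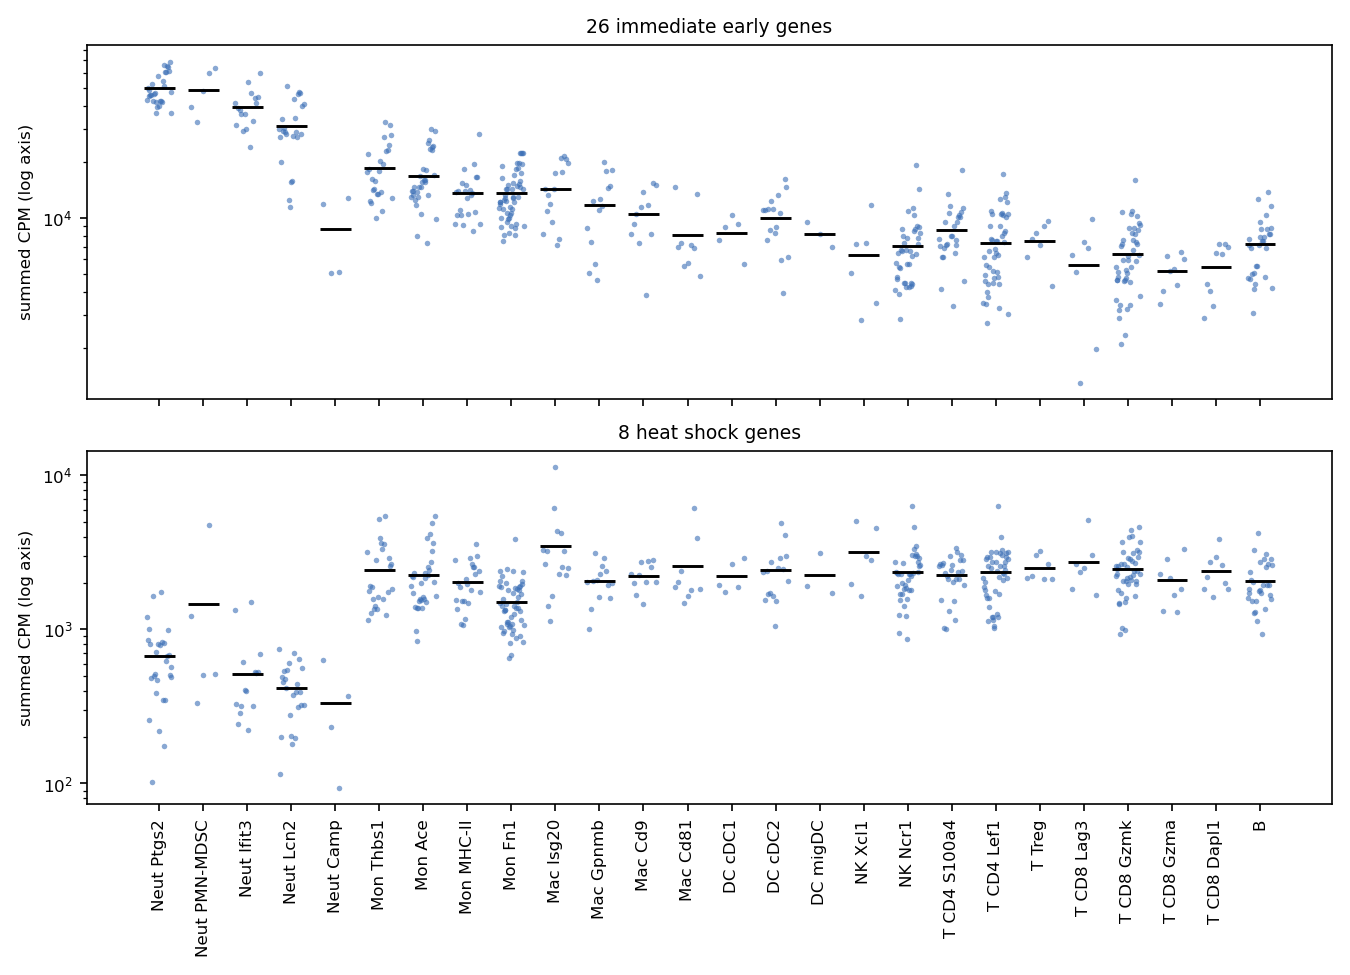
Summed CPM (log axes) of the 26 immediate early genes (upper panel) and the 8 heat shock genes (lower panel) in each annotated subpopulation; points are sums of 1 mouse and tissue and bars are means. Mature neutrophils stand highest in the upper panel, with a mean of 49881 CPM in Neut Ptgs2, and low in the lower panel, with 674 CPM.

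The AP-1 genes are described first, each with the subpopulation of its highest mean. Fos, whose product pairs with JUN proteins, had 10653 ± 2645 CPM in Neut Ptgs2 and 9419 ± 2525 in Neut Ifit3. Junb, another JUN subunit, had 5011 ± 1674 CPM in Neut Ptgs2 and 3983 ± 2348 in PMN-MDSC. For both genes the gap to the next subpopulation was below the SD. Jun itself was different, with 2003 ± 556 CPM in PMN-MDSC against 597 ± 411 in Mon Thbs1, the next highest, and only 399 in Neut Ptgs2. Jund was highest in CD8 Lag3 cells, at 380 ± 698 CPM with an SD above the mean, and Fosb and Fosl2 in Neut Ptgs2. Atf3, a repressor of inflammatory genes, was highest in Mac Isg20 (579 ± 503 CPM) and next in Mon Fn1 (404 ± 233). Atf4, the factor of the integrated stress response, was highest in PMN-MDSC at 399 ± 345 CPM.

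The EGR factors parted by cell type. Egr1 had 2508 ± 955 CPM in PMN-MDSC and 1779 ± 739 in Neut Ptgs2. Egr2, a factor of macrophage identity in the lung, had 728 ± 392 CPM in the alveolar macrophages Mac Cd9, against 167 ± 156 in Mac Isg20, the next highest subpopulation. Among the IER genes, Ier2 was highest in Neut Ptgs2 (1226 ± 588 CPM), while Ier3, which protects from apoptosis, had 4198 ± 1540 CPM in PMN-MDSC against 1014 ± 851 in Neut Ptgs2. Ier5 was highest in PMN-MDSC as well.

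The genes that end the response followed neutrophils with few exceptions. Dusp1 had 9001 ± 2043 CPM in Neut Ptgs2 and 7038 ± 1783 in Neut Ifit3. Dusp2 was instead highest in CD8 Gzma T cells (693 ± 453 CPM) and NK Ncr1 cells (414 ± 264), and Dusp5 in PMN-MDSC. Zfp36, which binds cytokine mRNAs for decay, had 2554 ± 1257 CPM in Neut Ptgs2. Btg2, an anti-proliferative factor, had 4210 ± 1757 CPM in the same cells, where Btg1 was highest too. Zfp36l1 was highest in Treg (626 ± 348 CPM) and migratory DC (591 ± 389).

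Nfkbia, the inhibitor that holds NF-kB in the cytoplasm, had 8507 ± 3019 CPM in PMN-MDSC, against 3835 ± 2119 in Neut Ptgs2. Nfkbiz had 1098 ± 424 CPM in PMN-MDSC and 1071 ± 582 in Neut Ptgs2, within their SDs. Cdkn1a, the p21 inhibitor of the cell cycle, was highest in Mon Thbs1 (2289 ± 1039 CPM), close to its 2114 ± 1570 in PMN-MDSC. Ppp1r15a, the phosphatase subunit that reverses translational arrest, was highest in Neut Ptgs2 (1618 ± 599 CPM), and Gadd45b in PMN-MDSC (1224 ± 1532 CPM). Klf6 had 2612 ± 878 CPM in PMN-MDSC and 1723 ± 504 in Neut Ptgs2. In all, 11 genes were highest in PMN-MDSC and 11 in Neut Ptgs2. The highest mean stood above the next by more than its SD for Jun, Egr2, Ier3, Nfkbia and Klf6 alone among the 34 genes. PMN-MDSC rests on 5 sums with a median of 13776 UMIs.

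The heat shock genes had no common order. Hsp90ab1, the constitutive HSP90, had 2156 ± 1052 CPM in NK Xcl1 cells and 1754 ± 570 in CD8 Dapl1 cells, and 61.7 CPM in Neut Camp. Hspa8, the constitutive HSP70, was highest in Mac Cd81 (425 ± 391 CPM). The inducible Hspa1a and Hspa1b were both highest in Mac Isg20, at 868 ± 1413 and 449 ± 553 CPM. Hsph1 was highest in CD8 Lag3 cells (155 ± 171 CPM), Hsp90aa1 in PMN-MDSC (443 ± 688), Dnaja1 in Neut Ptgs2 (170 ± 153) and Dnajb1 in CD8 Gzma cells (333 ± 245). For each of the 8 genes the gap to the next subpopulation was below the SD.

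**Figure D2:**
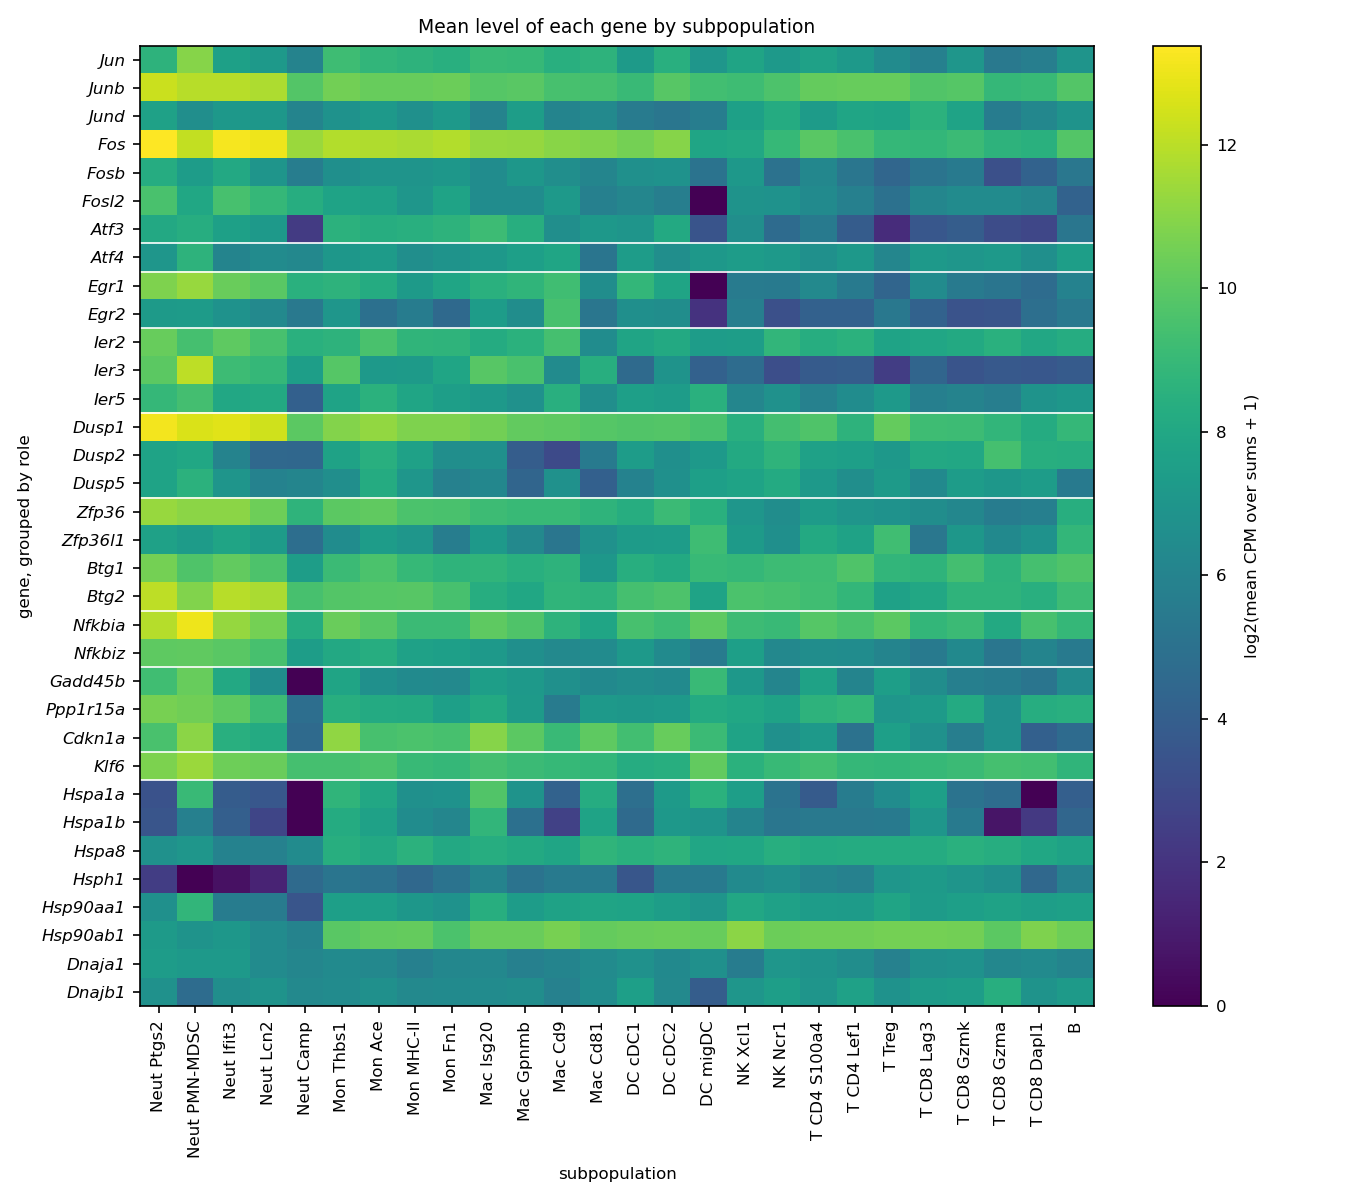
Mean level of each of the 34 genes (rows, grouped by role) in each of 26 subpopulations (columns), as log2(mean CPM over sums + 1) on a colour scale from 0. The neutrophil columns are bright for Fos, Junb, Dusp1 and Btg2 and dark for Hsp90ab1, and Egr2 is brightest in Mac Cd9, at 728 CPM.

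The genes also differed in how their UMIs lay over single cells. Hspa1a was detected in 987 of the 23425 cells, and the 234 cells with the most of its UMIs held 75.3% of 6285 UMIs. For Hspa1b the same number of cells held 71.7% of 4145 UMIs. The Hspa1a-rich cells came from 19 mice, 21 subpopulations and 9 batches, and had a median of 3589 UMIs, against 1133 in all cells. Egr2 (60.1%) and Hsph1 (57.7%) were concentrated as well, whereas the top 234 cells held 15.9% of Fos, 14.7% of Dusp1 and 12.1% of Btg1 UMIs. Means of Hspa1a and Hspa1b per sum therefore rest on few cells.

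Scores were higher in deeper sums. Spearman's rho between score and total UMIs was 0.54 over 510 sums, which share mice and plates. It was 0.17 after thinning to 10000 UMIs, which left out 41 sums that held fewer. The summed CPM hardly moved with depth (rho 0.09). Within Mon Fn1, across 54 sums, pairs of immediate early genes had a median rho of 0.23 (182 of 210 pairs above 0), pairs of heat shock genes 0.29 (6 of 6) and mixed pairs 0.15 (75 of 84). These sums share batches and mice, and the values are descriptions.

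Tissues were compared in 20 comparisons of lineage sums, with a mouse and tissue as the replicate, by edgeR's quasi-likelihood test with Benjamini-Hochberg adjustment over all genes tested. A gene was called at an adjusted p below 0.05. In 7 comparisons at least 1 of the 34 genes was called, and 22 genes were called at least once. The 12 others were Fosb, Fosl2, Atf3, Atf4, Ier2, Ier5, Dusp2, Nfkbiz, Hspa8, Hsp90aa1, Dnaja1 and Dnajb1, which were tested in 7 to 19 comparisons each. Of 29 calls in all, 6 passed edgeR's filter on low counts through 1 group alone, and Egr2, Gadd45b and Hsph1 rest on such calls only. The share of all genes called at least once was not counted. Nor was the share of all genes without overlap between the tissues of a comparison. Statements on overlap in these comparisons therefore describe the named genes and have no background to be read against. Several comparisons share samples, as the Pre-MET lungs are compared with both control lungs and primary tumors, and the values of each are given side by side only.

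Monocytes of the primary tumor differed most, when compared with the Pre-MET lungs of mice that still carried a tumor. Of the 33 genes tested (Hsph1 was not), 13 were called, 12 higher and Dusp5 lower, against 24.8% of all 7141 genes (11.7% higher and 13.1% lower). The median log2 fold change was 0.52 over the 33 genes and 0.06 over all genes. Jun was at 699.9, 997, 855 and 523 CPM in the primary tumors of mice 8, 9, 10 and 38, and at 75.7, 30.9 and 64.3 CPM in the Pre-MET lungs of mice 8, 9 and 10. The groups did not overlap, and the log2 fold change was 3.76 ± 0.33 (SE, adjusted p = 2.3e-07).

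Ier3 was at 538, 640.1, 475 and 88.4 CPM in primary tumors and at 17.1, 57.0 and 18.9 in Pre-MET lungs (log2 fold change 3.85 ± 0.58, adjusted p = 8.5e-05). Junb was at 2095, 2134, 1680.5 and 1132 CPM against 691, 456 and 512 (1.69 ± 0.26, adjusted p = 0.000118). Jund was at 167, 219.9, 107 and 97.2 CPM against 39.1, 19.0003 and 24.6 (2.43 ± 0.42, adjusted p = 0.000302). In each of the 3 genes all 4 tumors lay above all 3 lungs. Fos was not called, with 3456, 4200, 4270 and 2683 CPM in tumors and 3110, 2624 and 2861 in lungs, which overlapped. With the mouse as a replicate block edgeR called it (0.52, adjusted p = 0.0158), as it did Dusp1 (0.90) and Atf3 (0.70), against 24.8% of all 6377 genes tested there.

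Both inducible HSP70 genes were higher in the tumor monocytes. Hspa1b was at 352, 127, 263 and 86.2 CPM against 19.5, 26.1 and 3.78 (3.72 ± 0.60, adjusted p = 0.000153), and Hspa1a at 434, 182, 409 and 76.2 CPM against 26.9, 0 and 20.8 (4.12 ± 0.68, adjusted p = 0.000218). Neither gene overlapped between the groups. The other called genes were Cdkn1a (log2 fold change 1.36), Egr2 (3.48, from 212 UMIs in tumors and 9 in lungs, a pooled ratio of 9.78 with a 95% exact counting interval from 5.05 to 21.7, having passed the filter on low counts through the tumors alone), Btg2 (1.38), Zfp36 (1.18), Zfp36l1 (1.30) and Egr1 (1.29) on the higher side and Dusp5 (-1.999) on the lower, and of these Egr1 alone overlapped. Of 38 other genes of these pathways that were tested, 8 were higher and 4 lower. They included Sgk1, a kinase induced by stress (44.3 ± 7.81 CPM in 4 tumors, 202 in lungs, log2 fold change -2.18, adjusted p = 3.5e-05), Dusp6 (378 ± 18.4 against 136, 1.48, adjusted p = 0.000164) and Klf4 (55.1 ± 7.11 against 189, -1.75, adjusted p = 0.000169).

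These tissues differed in more than site. Mon Fn1 made up a median of 70.1% of monocytes in Pre-MET lungs and 11.3% in primary tumors, where Mon MHC-II (42.6%) and Mon Thbs1 (37.6%) prevailed. Within Mon Fn1 alone, 6 of the genes were called, and Jun ranged from 531 to 970 CPM in tumors and from 35.7 to 66.9 in lungs. The share of all genes called within Mon Fn1 is not given, so these 6 calls have no background to be read against. Neutrophil markers summed to 5.52 to 68.5 CPM in tumor monocytes and to 988 to 1936 in Pre-MET monocytes, and their part in the result was not tested. The batches of the groups did not overlap and the digestion programs differed, so site, program and batch cannot be told apart. In same-mouse pairs of 1 subpopulation, over all lineages, the module score was higher in the primary tumor in 13 of 16 pairs from 3 mice. The median difference over all pairs was 0.64. After thinning to 10000 UMIs it was higher in 12 of 15 pairs, with a median difference of 0.83. Summed CPM of the immediate early genes was higher in 10 of the 16 pairs (median log2 ratio 0.098) and of the heat shock genes in 13 (0.56).

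T cells of the same tissues moved in both directions. Of 19 genes tested 6 were called, 3 higher and 3 lower in the primary tumor, against 24.7% of all 2692 genes (9.66% higher and 15% lower), so that their share was near the background. Leaving out 1 mouse gave 1 to 5 calls, with 1 without the Pre-MET lung of mouse 8, 2 without that of mouse 9 and 3 without that of mouse 10 or the primary tumor of mouse 8. The median log2 fold change was -0.05 over the 19 genes and 0.08 over all genes. Ppp1r15a was at 79.0, 118, 21.9 and 73.1 CPM in tumors and at 262, 280.007 and 296 in Pre-MET lungs (-2.05 ± 0.51, adjusted p = 0.00691). Fos was at 158, 274, 269 and 73.1 CPM against 596, 320.0 and 531 (-1.39 ± 0.43, adjusted p = 0.0285), and Btg1, an anti-proliferative gene of resting lymphocytes, at 237, 610.5, 520.1 and 222 against 691, 664 and 1161 (-1.15 ± 0.37, adjusted p = 0.0360). All 3 were lower in every tumor than in every lung.

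On the higher side, Junb was at 764, 1057, 1006 and 799.7 CPM in tumors and at 346, 376 and 544 in lungs (1.02 ± 0.27, adjusted p = 0.0113). Jund was at 184, 122, 213 and 106 CPM against 11.9, 8.00 and 74.1 (2.30 ± 0.74, adjusted p = 0.0346). Zfp36 was at 43.9, 189, 219 and 95.3 CPM against 23.8, 32.0 and 37.1 (2.07 ± 0.72, adjusted p = 0.0493). None of the 3 overlapped, but the lungs held 8 Jund and 9 Zfp36 UMIs in all, and both genes passed the filter on low counts through the tumors alone. With the mouse as a replicate block, over the 3 mice with both tissues, Ppp1r15a, Junb and Jund were called and Dusp1 as well (1.36, adjusted p = 0.0215), whereas Fos (-0.95, adjusted p = 0.125) and Btg1 (-0.86, adjusted p = 0.0979) were not and Zfp36 was not tested. The block called 21.1% of all 2317 genes tested. DESeq2, and edgeR without the filter on low counts, also left Fos, Btg1 and Zfp36 without a call (adjusted p from 0.0578 to 0.0767), and both called Hspa1a higher, a gene that the filter had left out. They called 10.6% (DESeq2) and 3.69% (no filter) of all genes they tested.

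Of 19 other pathway genes, Bhlhe40 and Hsp90b1 (158 ± 73.7 against 44.3 CPM, 1.81, adjusted p = 0.0470) were higher in tumor T cells and Fkbp4 (121 ± 30.3 against 264 CPM, -1.23, adjusted p = 0.0360) lower. No Pre-MET lung reached the level of the filter on low counts for Bhlhe40 or Hsp90b1, so both were tested only because the tumors did. Bhlhe40 had 142 UMIs in tumors and 0 of 289861 UMIs in the lungs, so that its pooled level was 12.2-fold that of a floor of 3 counts over the lungs (10.3 CPM), with 9.82 as the lower limit of the 95% exact counting interval of the ratio. CD4 Lef1 cells were a median of 63.4% of T cells in Pre-MET lungs and 30.1% in tumors, and Treg 0.909% and 19.2%. Within CD4 Lef1 cells alone no gene of the 34 was called by edgeR. Neutrophil markers summed to 643 to 1112 CPM in the Pre-MET T cells and to 15.5 to 59.5 in the tumor T cells, and their part in the result was not tested.

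**Figure D3:**
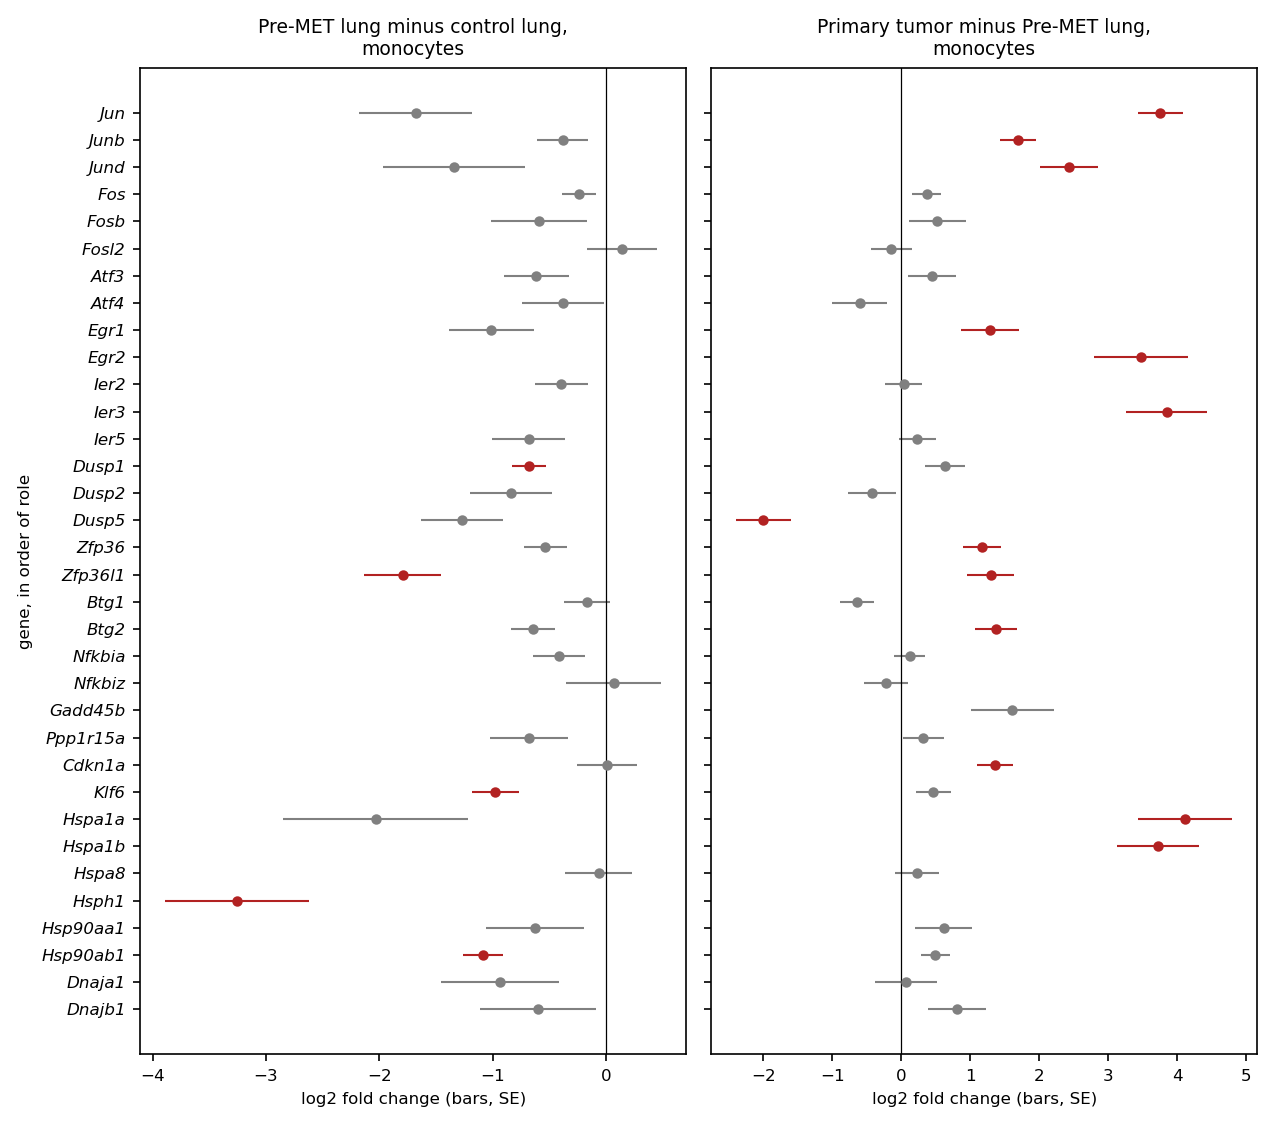
Log2 fold changes (points) with SE (bars) of the 34 genes in monocytes, for Pre-MET against control lungs (left) and primary tumors against Pre-MET lungs (right); red marks an adjusted p below 0.05 and missing points were not tested. All 5 red points on the left lie below 0, and on the right 12 lie above 0 and Dusp5 (-1.999) below.

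Pre-MET lung monocytes were lower than those of control lungs in 5 genes. Of 30 genes tested 5 were called, all lower, against 4.32% of all 4953 genes (2.02% called lower). Egr2, Ier3, Gadd45b and Hspa1b were not tested. The median log2 fold change was -0.64 over the 30 genes and -0.02 over all genes. In edgeR's test 15 of the 30 had an unadjusted p under 0.05, against 894 of all 4953 genes. Hsp90ab1 was at 603, 549 and 669 CPM in Pre-MET lungs and at 1243, 1397 and 1129 in control lungs (-1.09 ± 0.18, adjusted p = 0.00181).

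Zfp36l1 was at 46.4, 59.4 and 70.0 CPM in Pre-MET lungs and at 191, 214 and 194 in control lungs (-1.79 ± 0.34, adjusted p = 0.00666). Hsph1, a partner of HSP70, was at 4.88, 7.13 and 18.9 CPM against 114, 115 and 76.2 (-3.25 ± 0.63, adjusted p = 0.00785), from 15 and 58 UMIs, and passed the filter on low counts through the control lungs alone. Neither gene overlapped between the groups. Klf6 was at 286, 382 and 419.8 CPM against 562, 719 and 818 (-0.98 ± 0.21, adjusted p = 0.0140). Dusp1 was at 1406, 1337 and 1503 CPM against 2277, 2191 and 2183 (-0.68 ± 0.15, adjusted p = 0.0169). In both genes every Pre-MET lung lay below every control lung. Jun and Fos were not called. Without the filter on low counts, edgeR called 6 genes, all lower, among them Jun (-1.55, adjusted p = 0.0188) and Dusp5 (-1.13, adjusted p = 0.0474), and did not call Dusp1 (-0.54, adjusted p = 0.0846), with 1.44% of all 18135 genes called.

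Of 33 other pathway genes tested none was higher and 5 were lower, the 3 with the smallest adjusted p being Klf2, a factor of quiescence (290 ± 51.2 CPM in Pre-MET and 857 in control lungs, -1.59, adjusted p = 0.00021), Nr4a1, which patrolling monocytes need (361 ± 34.5 against 846, -1.26, adjusted p = 0.000797), and Klf4 (189 ± 6.21 against 479, -1.35, adjusted p = 0.00953). Mon Ace cells, the patrolling monocytes, were a median of 60.4% of monocytes in control lungs and 23.7% in Pre-MET lungs. Within Mon Fn1 alone none of the 34 genes was called by edgeR, with Hsp90ab1 at 658 to 1370 CPM in control lungs and 542 to 618 in Pre-MET lungs. Neutrophil markers summed to 227 to 631 CPM in control and 988 to 1936 in Pre-MET monocytes. Without the Pre-MET lung of mouse 8 or 9, 3 of the genes were called. The control lungs were sequenced in 1 batch of their own, so batch and tumor cannot be told apart.

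In T cells and neutrophils of these lungs, the other lineages compared, no gene of the 34 was called by edgeR. This held for 19 genes in T cells (smallest adjusted p = 0.0938), against 1.74% of all 3218 genes (1.49% higher and 0.249% lower). An unadjusted p under 0.05 was found for 2 of the 19 and for 518 of all genes. DESeq2 called 2 in T cells, against 8.53% of the 1173 genes it adjusted. In neutrophils edgeR called none of 14 genes, against 1.06% of all 377 genes. An unadjusted p under 0.05 was found for 3 of the 14 and for 37 of all genes, and DESeq2 called none. Fos in monocytes, for which control lungs had 3042 to 3629 CPM and Pre-MET lungs 2624 to 3110, overlapped.

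Between relapse-free and control lungs edgeR called 1 gene of the 34, in monocytes. Ier3 was at 40.6, 103 and 317 CPM (lowest, median and highest of 6 relapse-free lungs) and at 5.98, 4.11 and 0 in the control lungs, without overlap. The controls held 2 Ier3 UMIs of 554956 and the relapse-free lungs 272 of 2116152, a ratio of 35.7 with a 95% exact counting interval from 9.78 to 296. edgeR called it with a log2 fold change of 4.98 ± 0.89 (adjusted p = 0.0124), a fold that depends on the prior count. No control lung reached the level of the filter on low counts, so the gene was tested only because the relapse-free lungs did. It was the only gene called higher among 4884 (0.0205%), all 34 genes were tested, and the call was lost without any 1 of the 3 control lungs. Within Mon Fn1, Ier3 was at 0 to 18.5 CPM in control and 56.9 to 357 in relapse-free lungs and was not called. Neutrophil markers summed to 227 to 631 CPM in control and 463 to 3421 in relapse-free monocytes, and their part was not tested. The relapse-free lungs shared no sequencing batch with the control lungs, so batch and status cannot be told apart.

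In T cells of relapse-free against control lungs none of 29 genes was called by edgeR, as none of all 6654 genes was (0%). Of the 29 genes 6 had an unadjusted p under 0.05, against 335 of all genes, and DESeq2 called 1 (0.0854% of all genes). The median log2 fold change was 0.54 over the 29 genes and 0.01 over all, with neutrophil markers at 148 to 378 CPM in control and 229 to 3222 in relapse-free T cells. As in monocytes, batch and status cannot be told apart. Against distal normal tissue, none of 16 genes in T cells (0.587% of all genes) and none of 32 in monocytes (0.606%) was called by edgeR, with 1 and 4 at an unadjusted p under 0.05. DESeq2 called 1 in T cells (0.28% of all genes) and none in monocytes.

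Sections of metastases were compared with distal normal sections without pairing. The 13 mice with a metastasis section in the monocyte comparison also gave a distal section, and mouse 17 gave a distal section only. In monocytes 26 of the 34 genes were tested and 1 was called, against 1.48% of all 2098 genes. The filter on low counts left out Egr2, Zfp36l1, Gadd45b, Hspa1a, Hspa1b, Hsph1, Dnaja1 and Dnajb1. The called gene was Ier3, at 92.8, 399 and 1506 CPM (lowest, median and highest of 13 metastases) against 61.1, 196 and 446 in 14 distal tissues, which overlapped (log2 fold change 1.398 ± 0.36, adjusted p = 0.0304). Without the sums of batch SB124, an alternative added after the data were seen, it was not called. It was not called either when only cells of at least 1000 UMIs were summed. Each of the 26 tested genes had a positive log2 fold change, with a median of 0.31 against 0.00 over all genes. Of the 26, 4 alone had an unadjusted p under 0.05, against 169 of all 2098 genes. In 46 same-mouse pairs of 1 subpopulation from 12 mice, over all lineages, the module score was higher in the metastasis in 21, with a median difference of -0.11, and after thinning to 10000 UMIs in 18 of 36, with 0.01.

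Without the filter on low counts edgeR called 8 genes higher in the metastasis, against 1.44% of all 22399 genes in either direction, among them Hspa1a (log2 fold change 1.89, adjusted p = 1.9e-06), Hspa1b (1.46, adjusted p = 0.00188), Gadd45b (1.16, adjusted p = 0.0340) and Egr2 (1.43, adjusted p = 0.0426). DESeq2 called Cdkn1a and Ier3 alone of the 34 genes, against 1.11% of the 7199 genes it adjusted. It did not call Hspa1a, Hspa1b, Gadd45b or Egr2. Jun was at 70.7, 352 and 1182 CPM in metastases and 28.6, 184 and 855 in distal tissues, and higher in the metastasis in 10 of 13 mice, as Ier3 was. With the mouse as a replicate block edgeR called 4 genes (Cdkn1a, Ier3, Jun and Nfkbia), against 3.99% of all 1979 genes tested there. Mon Thbs1 cells ranged from 1.61% to 70.9% of monocytes in metastases and from 0% to 13.6% in distal tissue, and within Mon Fn1 no gene was called. Neutrophil markers summed to 50.2 to 5254 CPM in metastasis and 111 to 4753 in distal monocytes. None of 22 other pathway genes was called. In T cells (8 genes, 1 with an unadjusted p under 0.05) and NK cells (11 genes, none) edgeR and DESeq2 called no gene of the 34, and edgeR 0% of 394 and 514 genes. Of these 394 and 514 genes, 16 and 13 had an unadjusted p under 0.05.

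Macrophages of these sections, which were not among the 20 comparisons, are described without a test. In the 5 mice with both sums, Hspa1a was at 201, 53.7, 986, 185 and 609 CPM in the metastases of mice 23, 26, 28, 30 and 33 and at 0, 0, 35.3, 0 and 0 in their distal tissue. In all, 7 of the 34 genes were higher in the metastasis in 5 of 5 mice and 0 were lower in 5 of 5. The 7 were Atf3 (median difference of log2(CPM + 1) 2.19), Ppp1r15a (1.80), Ier3 (1.72), Hspa8 (0.65), Hspa1a, Hspa1b and Dnajb1, while Jun was higher in 1 of 5. The last 3 of the 7 were at 0 in 4 of the 5 distal sums, so no median difference is given for them, and Dnajb1 rests on 31 UMIs in the metastases and 1 in distal tissue. Of 30 genes of the list with a mean of at least 50 CPM in these sums, 6 were higher in 5 of 5 (the 7 without Dnajb1, which is below that mean), against 7.91% of all 3375 such genes (5.63% were lower). That mean was taken over both tissues, and Hspa1a and Hspa1b reached it through the metastases alone. Sums of the 5 distal tissues held 12757 to 28346 UMIs, against a median of 86493 in the metastases. Pooled over the 5 mice, the metastases held 245 Hspa1a UMIs of 484585 and the distal tissues 1 of 99499, a ratio of 50.3 with a 95% exact counting interval from 8.94 to 1995. Over all 9 metastases and 6 distal tissues, which include mice with 1 of the 2 only, they held 486 of 1334688 and 4 of 134776, a ratio of 12.3 (4.76 to 45.2). Distal macrophages were mostly Mac Cd9 (median 71.3%) and those of metastases Mac Isg20 (44.0%), so cell type and tissue cannot be told apart.

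Hspa1a and Hspa1b summed were at 64.5, 424 and 1453 CPM in macrophages of 9 metastases and at 0, 763 and 7055 in those of 10 cores. Mouse 28 alone gave the highest core, where Hspa1a had 5063 CPM from 244 UMIs in 24 cells. The 4 invasive margins ranged from 28.3 to 152 CPM and the 3 control lungs from 14.6 to 33.5, and primary tumors overlapped with both at 0 to 891. In monocytes the sum was 24.6 to 46.4 CPM in Pre-MET lungs, below the 94.5 to 149 of control lungs and the 162 to 786 of primary tumors. T cells of distal tissue were at 0 in 11 of 13 sums, and those of metastases in 4 of 13.

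**Figure D4:**
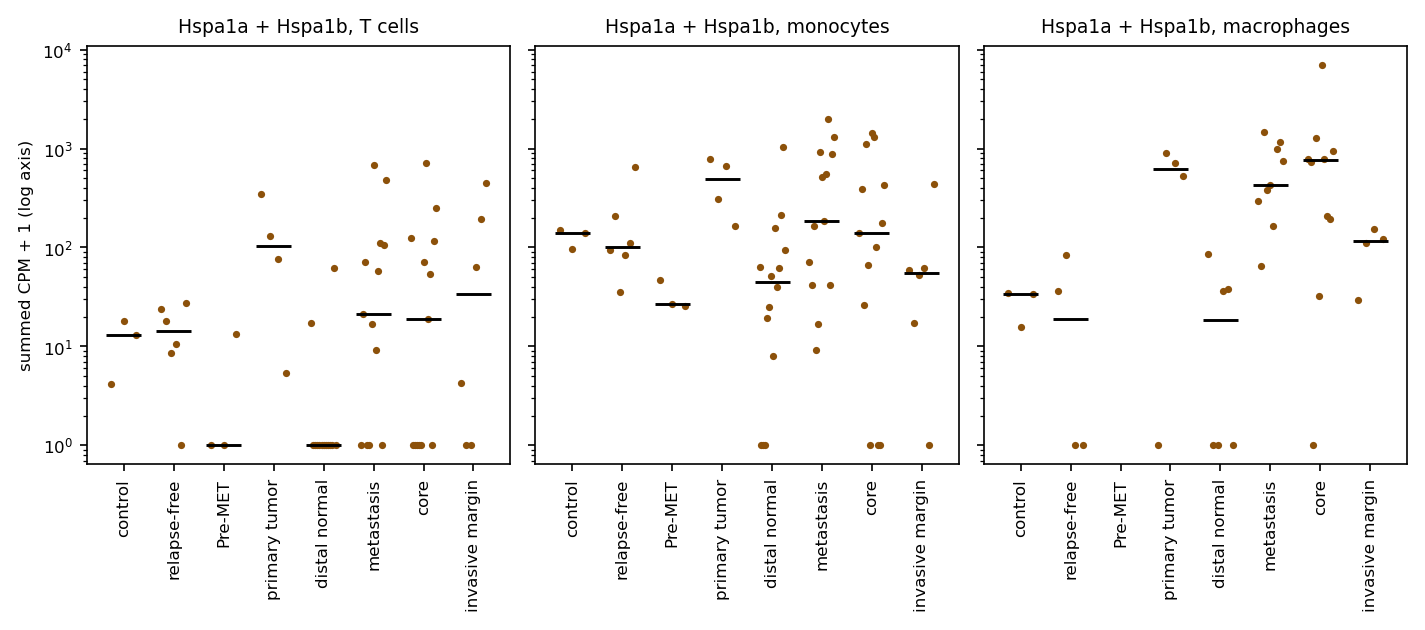
Summed CPM + 1 of Hspa1a and Hspa1b (log axes) by tissue in monocytes, macrophages and T cells; each point is the lineage sum of 1 mouse and tissue. Macrophages of metastases lie at 64.5 CPM or above and those of distal normal tissue at 85.04 or below, while cores run from 0 to 7055.

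Photoactivated cores and sections of metastases differ in preparation and gate as well as in region. None of 11 genes in T cells, 22 in monocytes and 25 in macrophages was called between them by edgeR or DESeq2, and edgeR called 0% of the 656, 1166 and 1431 genes tested. Only 1 gene, in T cells, had an unadjusted p under 0.05. In 51 same-mouse pairs of 1 subpopulation from 11 mice, the score was higher in the core in 29, with a median difference of 0.11, and after thinning to 10000 UMIs in 28 of 40, with 0.38. Whole lungs of 2 relapse-free mice were sorted with and without photoactivated GFP. In mouse 6 the monocyte score was 7.62 on GFP-positive, 7.64 on GFP-negative and 7.73 on other plates, and in mouse 7 it was 7.502, 7.71 and 7.64. After thinning to 10000 UMIs the direction between GFP-positive and GFP-negative plates turned, with 6.70 against 6.08 in mouse 6 and 6.05 against 5.62 in mouse 7. It also turned in T cells of mouse 6 and NK cells of mouse 7. Each sum was thinned with 1 random draw, and the spread between draws was not measured. The score was higher on GFP-positive than on GFP-negative plates in NK cells of mouse 6 (6.79 against 5.33, and 6.06 against 3.19 after thinning). The score was lower in dendritic cells (6.17 against 7.95, thinned 5.95 against 7.13) and macrophages (6.11 against 7.43, thinned 5.15 against 6.82) of mouse 7. It was also lower in neutrophils of mouse 7 (8.24 against 8.67, thinned 7.74 against 7.92). GFP-positive plates of mouse 7 lay in SB99 and its GFP-negative plates in 2 batches, mainly SB96, so gate and batch cannot be fully told apart.

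Between invasive margins and cores none of 15 genes in T cells and 24 in monocytes was called by edgeR or DESeq2 (edgeR called 0% of 1195 and 1025 genes). None of them had an unadjusted p under 0.05, against 24 of all genes in T cells and 84 in monocytes. Without the margin of mouse 17, an alternative added after the data were seen, edgeR also called none. With the mouse as a block, Ier3 was called lower in margin monocytes (log2 fold change -1.32, adjusted p = 0.0177) among 58 of all 1354 genes (4.28%), and without mouse 17 among 29 of 951 (3.05%). It was lower in the margin in 5 of 5 mice with both. The same-mouse score was higher in the margin in 13 of 28 pairs from 5 mice, with a median difference of -0.15, and after thinning in 10 of 28, with -0.58. Mouse 17 gave 12 of these pairs. Without it the score was higher in 9 of 16 pairs from 4 mice, with a median difference of 0.02, and after thinning in 5 of 16, with -0.49.

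Primary tumors were lower than metastasis cores in 3 calls. In macrophages 26 genes were tested and 2 were called, both lower, against 4.53% of all 2162 genes (1.67% higher and 2.87% lower). Egr1 was at 197, 76.0, 62.7 and 25.9 CPM in primary tumors and at 116, 243 and 1230.4 in 10 cores (-2.19 ± 0.59, adjusted p = 0.0307). Nfkbia was at 207, 354.05, 263 and 273 CPM against 226, 658 and 2445 (-1.80 ± 0.52, adjusted p = 0.0470). Both overlapped between the groups, and edgeR without the filter on low counts called Egr1 but not Nfkbia. The median log2 fold change was -0.83 over the 26 genes and 0.01 over all genes. Of 22 other pathway genes, Sgk1 (18.8 ± 17.3 CPM in primary tumors, 220 in cores, -3.34, adjusted p = 0.00372) and Trib1, a regulator of MAP kinase signalling (26.9 ± 16.1 against 122, -2.09, adjusted p = 0.0439), were lower. No primary tumor reached the level of the filter on low counts for Sgk1 or Trib1, so both were tested only because the cores did. Mac Cd81 was a median of 83.0% of primary tumor and 18.8% of core macrophages, and neutrophil markers summed to 0 to 49.9 and 20.7 to 1718 CPM.

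In monocytes 28 genes were tested and 1 was called, against 1.47% of all 1835 genes (0.926% called lower). Gadd45b, a stress sensor, was at 91.3, 33.4, 29.8 and 36.5 CPM in primary tumors and at 0, 174 and 461 in 13 cores, which overlapped (-1.98 ± 0.47, adjusted p = 0.0284). It passed the filter on low counts through the cores alone, and edgeR without that filter did not call it. Of 19 other pathway genes Nr4a2 was lower (37.7 ± 24.6 against 196 CPM, -2.10, adjusted p = 0.0179) and Dusp6 higher (378 ± 18.4 against 124, 1.46, adjusted p = 0.0428). Nr4a2 also passed the filter on low counts through the cores alone. Neutrophil markers summed to 5.52 to 68.5 CPM in primary tumor and 0 to 1848 in core monocytes. In T cells none of 24 genes was called by edgeR or DESeq2, against 0.592% of all 2197 genes called by edgeR, with a smallest adjusted p of 0.0713. An unadjusted p under 0.05 was found for 5 of the 24 and for 349 of all genes. Leaving out the primary tumor of mouse 9, 10 or 38 left none of the 3 calls. With the sequencing batch as a term none of the 3 held either. Primary tumors share only batch SB128 with cores, so that fit rests on the primary tumors of SB128 alone. The loss of the calls in it cannot tell batch and site apart.

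Jund moved with a sequencing batch. In metastasis-bearing lungs, NK cells sequenced in batch SB124 held 923, 1664 and 3068 Jund CPM (lowest, median and highest of 6 sums), and all sums of other batches were at 391 or below. In monocytes the 13 sums of SB124 were at 315, 578 and 1730 CPM, above the 283 of the highest other sum, and in neutrophils the 4 sums were at 528, 1052 and 1348, above 488. In T cells they were at 325, 736 and 2361 CPM, which overlapped with others up to 533. Genes whose SB124 sums lay above all others were 0.3% of those compared in NK cells, 0.145% in monocytes, 0.82% in neutrophils and 0.203% in T cells. Jund was the only one of the 34 genes among them in NK cells, monocytes and neutrophils, and none was in T cells.

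SB124 held mice 31 to 34 only, but mice 31 and 32 were also sequenced in SB128. In 6 pairs of the same mouse, tissue and lineage, Jund was higher in SB124 in 6 of 6, for example 1062 against 190.5 CPM in neutrophils and 416 against 130.0 in monocytes of mouse 31, and 325 against 187 in monocytes of mouse 32. Fos and Btg1 were also higher in SB124 in 6 of 6 pairs. Ier3, Ier5, Dusp2, Nfkbia, Nfkbiz and Gadd45b were lower in 6 of 6, and Junb higher in 3 of 6. The SB124 sum was the shallower in each pair, for example 13646 against 108621 UMIs in T cells of mouse 31. There Ier3, Ier5, Dusp2, Nfkbiz and Gadd45b were at 0 in SB124, so part of these directions rests on counts of 0. The share of all genes with 1 direction in 6 of 6 pairs was not counted. Junb had monocyte medians of 2708 CPM in SB124 (13 sums) and 2161 in SB128 (9 sums), against 882 in SB118 (21 sums), 856 in SB112 and 620 in SB123. SB112 held mouse 17 alone and SB123 mouse 30 alone, so mouse and batch cannot be told apart there. SB118 shared no mouse with SB124 or SB128, so the same holds for its lower Junb median. SB126 held 1 monocyte sum, from the metastasis of mouse 24, with 1828 Junb CPM against 973 in the SB118 sum of the same metastasis.

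**Figure D5:**
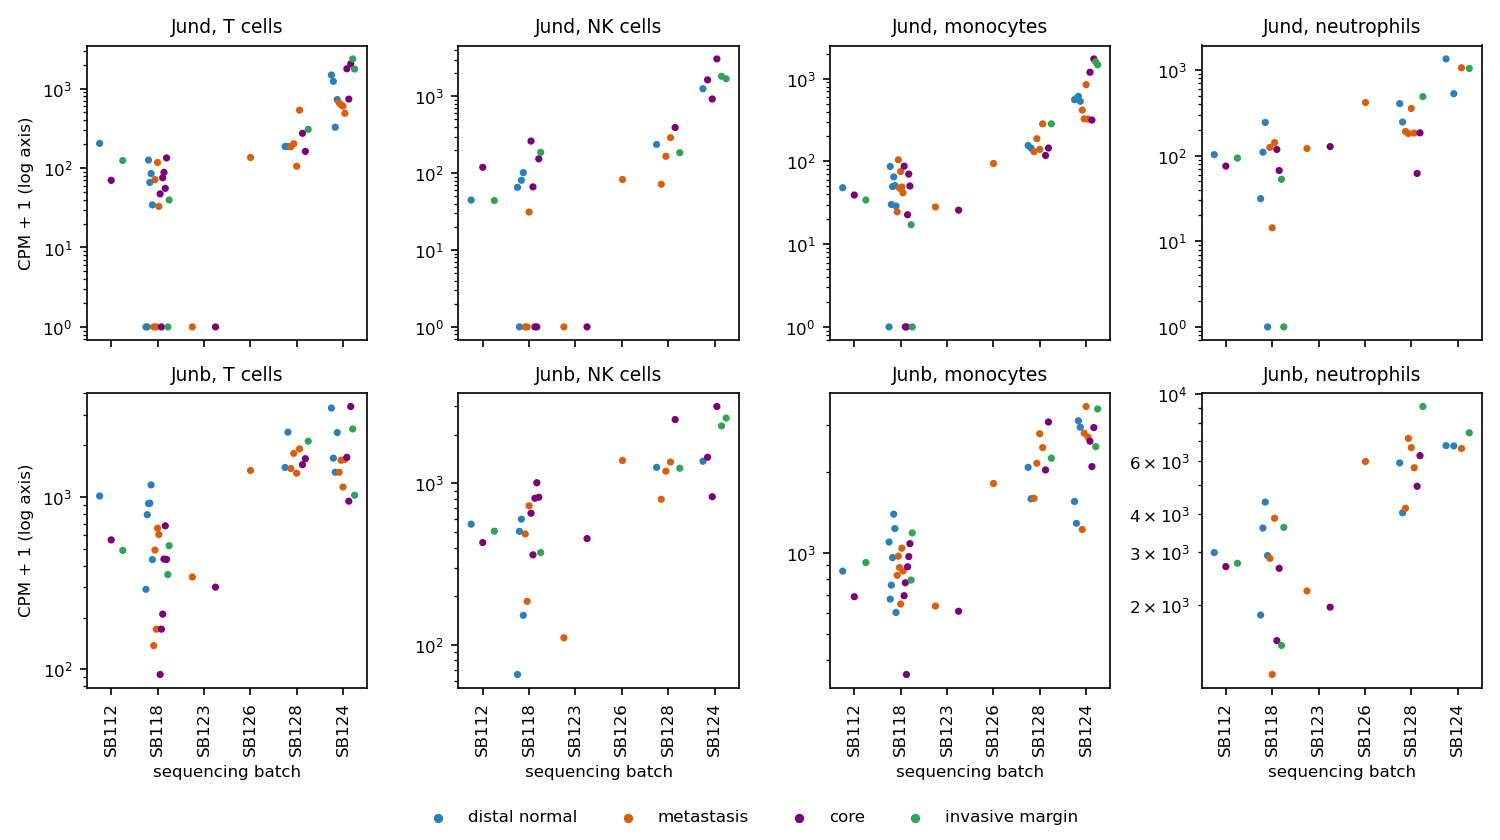
CPM + 1 (log axes) of Jund (upper row) and Junb (lower row) in lineage sums of metastasis-bearing lungs by sequencing batch; colours mark the tissue. All Jund points of SB124 lie above those of the other batches in NK cells, monocytes and neutrophils (at least 923, 315 and 528 CPM).

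Hspa1a differed between batches in T cells. T cells of mouse 30, the only mouse of SB123, held 365 CPM in the core and 441 in the metastasis, both of SB123, and 0 in the distal tissue, which was sequenced in SB118. T cells of SB118 were at 0 in 18 of 19 sums. Monocytes of mouse 30 held 705 CPM in the core and 253 in the metastasis, within the 0 to 948 CPM of SB118 monocytes, and 0 in the distal tissue. NK cells of this mouse held 943 CPM in the core and 0 in the metastasis. As its distal tissue alone lay in SB118, tissue and batch cannot be told apart within mouse 30.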

How the data were processed

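The authors deposited raw UMI counts per gene and well for 148 plates, without normalization, and an annotation of wells with mouse, tissue, batch and subpopulation. Per the labels and the Methods, reads were demultiplexed with bcl2fastq 2.15.0.4, mapped to mm10 with HISAT, removed where they had several mapping positions, assigned to exons and collapsed to distinct UMIs, and cells below 500 UMIs were discarded. No deposited p-values or fold changes were used.

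Of 52634 gene rows, 92 were spike-in rows, which held 0% of UMIs and were left out. Annotated cells were taken as the authors named them, with 595 annotated as erythrocyte, outlier or tumor left out, and UMIs were summed per mouse, tissue and subpopulation or lineage (10 or more cells). The total UMIs of a sum set its precision, since a count of 0 allows a level of up to 3 counts of that total, and the counting intervals (95%, Clopper-Pearson) cover counting error only. Sums of different mice are the replicates. Lineage sums of 2 groups were compared with edgeR 4.0.16 (TMM, filterByExpr, quasi-likelihood F test, two-sided, Benjamini-Hochberg over all genes tested, R 4.3.3). DESeq2 1.42.0 was an alternative. Others were no filter, cells of at least 1000 UMIs, the most abundant subpopulation alone, batch as a term, the mouse as a block, 1 mouse left out and, for the score, a pseudocount of 10 CPM, thinning to 10000 UMIs, sums of 20 or more cells, the log2 of the summed CPM and each gene group alone. Thinning used 1 random draw per sum. Omission of batches SB123 and SB124 and of the margin of mouse 17 was added after the data were seen. Tables were made with Python 3.11.15, numpy 2.4.6, scipy 1.17.1 and pandas 2.3.3, and figures with matplotlib 3.10.9. The fits were tested on simulated data.

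The 34 genes, the lists and the tests were chosen with earlier results of these data known. Genes called in a comparison were named, at most 6 with full values by adjusted p. Across subpopulations, the genes of highest mean in each role and any gene highest in a subpopulation were named. Of 51 other genes of these pathways at most 3 were named per comparison. The pairing by mouse comes from the mouse given for each sample. After removal of tissue means, monocyte sums of the same mouse correlated by 0.220 on average between metastasis and distal tissue (13 mice, 0.0720 to 0.647), 0.271 between core and metastasis (12 mice, -0.182 to 0.698), 0.381 between margin and core (5 mice, 0.0250 to 0.634) and 0.0239 between primary tumor and Pre-MET lung (3 mice, 0.0110 to 0.0403).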

Additional observations from a re-analysis of the deposited data

Results flagged for a closer look

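In 4 of 46 groups of 4 to 10 sums, 1 sum stood apart from the others by Dixon's criterion, of which chance gives about 1 in 20 groups. The relapse-free lung of mouse 29 had the lowest module score in NK cells (3.92, from 16 cells and 10590 UMIs) and in T cells (5.43, from 47 cells and 34833 UMIs). Gadd45b in monocytes was highest in the primary tumor of mouse 8 (91.3 CPM), the only primary tumor of its batch, and Egr1 in macrophages was highest in the core of mouse 37 (1230.4 CPM).

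Fos had opposite directions in different lineages in 3 pairs of tissues, and the differences were not tested. These cases were picked from the 34 genes by a search for opposite directions held by every mouse. The share of all genes that such a search would pick was not counted. The mice with both tissues were not all the same in both lineages, except between primary tumor and Pre-MET lung. Between margin and core it was higher in neutrophils (median log2 difference 0.40) and lower in NK cells (-0.70) in each of 4 mice. Between core and metastasis section it was higher in NK cells in each of 8 mice (0.52) and lower in neutrophils in each of 5 mice (-0.46). NK cells of mice 31 and 32 lay in SB124 for the core and SB128 for the section. Those of mouse 24 lay in SB118 and SB126, so tissue and batch cannot be told apart in these mice. Between primary tumor and Pre-MET lung Fos was higher in monocytes (0.58) and lower in T cells (-0.98) in each of 3 mice, as was Ppp1r15a (0.48 and -1.72).

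In wells outside the comparisons, immediate early genes took 1.79% of UMIs in 336 cells annotated as erythrocytes, 1.06% in 165 outliers and 1.24% of 8490 UMIs in 592 wells without a cell, against 0.840% in the immune cells of control lungs. In immune cells of all tissues together they took 1.401%, above the outliers and the wells without a cell. Heat shock genes took 0.488% of UMIs in 94 cells annotated as tumor, against 0.208% in the immune cells of control lungs. Hsp90ab1 alone was at 4160 CPM in these tumor cells and 1407 in the control cells, and Hspa1a at 3.86 and 19.4.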

How the results depend on the processing

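Calls per comparison under each alternative are counts of the 34 genes. Where no share of all genes is given here or above, a count has no background to be read against. In metastasis against distal monocytes (1 call), DESeq2 gave 2 (against 1.11% of all genes), no filter 8, cells of at least 1000 UMIs 0, Mon Fn1 alone 0, batch as a term 3 and omission of SB124 0. In primary tumor against core, no filter gave 1 in T cells (none in the comparison as reported), 0 in monocytes (1) and 1 in macrophages (2), DESeq2 2 in monocytes and 5 in macrophages, the most abundant subpopulation alone 1 in T cells and 0 in monocytes, batch as a term 0 in both myeloid lineages, and omission of SB124 4 in macrophages. Of all genes, no filter called 1.51% in T cells and 1.33% in macrophages, and DESeq2 1.12% in monocytes and 2.35% in macrophages. In primary tumor against Pre-MET lung, DESeq2 and no filter each gave 4 in T cells (6), cells of at least 1000 UMIs 3, and the most abundant subpopulation alone 0 in T cells and 6 in monocytes (13). In Pre-MET against control lungs, DESeq2 and no filter each gave 2 in T cells (0), and Mon Fn1 alone 0 in monocytes (5). No filter called 0.438% of all genes in these T cells. In relapse-free against control lungs, DESeq2 and no filter each gave 1 in T cells (0), and cells of at least 1000 UMIs and Mon Fn1 alone each 0 in monocytes (1). No filter called 0.0925% of all genes in these T cells. DESeq2 gave 1 in T cells of relapse-free lungs against distal tissue (0). No filter gave 1 in margin against core monocytes (0), Hspa1b with a log2 fold change of -2.85, against 0.466% of all genes. The causes were not tested.

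With the mouse as a replicate block, calls were 4 in metastasis against distal monocytes, 1 in margin against core monocytes (Ier3, also 1 without mouse 17, an alternative added after the data were seen), 4 in T cells and 16 in monocytes of primary tumor against Pre-MET lung, and 0 in the 6 other comparisons that could be blocked. In metastasis against distal monocytes Cdkn1a, Jun and Nfkbia gained a call and Ier3 kept it. In the T cells Fos and Btg1 lost and Dusp1 gained a call, and in the monocytes Fos, Dusp1 and Atf3 gained one. Apart from these and Ier3 in the margin, the block changed no other call of a gene it tested.

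With 1 mouse left out, calls ranged from 0 to 0 in T cells, 0 to 1 in monocytes and 0 to 2 in macrophages of primary tumor against core, from 1 to 5 in T cells and 11 to 14 in monocytes of primary tumor against Pre-MET lung, from 0 to 0 in T cells and neutrophils and 3 to 5 in monocytes of Pre-MET against control lungs, and from 0 to 0 in both lineages of relapse-free against control lungs.

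The score of Neut Ptgs2 minus that of CD4 Lef1 cells was 2.12, but 3.32 for immediate early genes alone and -1.78 for heat shock genes alone. In Mon Fn1, SB124 minus SB118 was 0.45 and, after thinning, 0.90. These batches shared no mouse, so mouse and batch cannot be told apart. Of 311 values for 29 single calls under alternatives, 234 kept direction and call, 77 kept the direction only and 0 reversed. Batch as a term gave no value where groups shared no batch (primary tumor or control lungs against whole lungs), nor did the most abundant subpopulation alone in primary tumor against core macrophages, or cells of at least 1000 UMIs in neutrophils. Genes below the count filter, most often Egr2, Hsph1 and Hspa1b, were tested only without it.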
